A study of Mus musculus with 18 samples.

Results

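The periportal hepatocytes of mice fasted for 24 h were compared with those of mice fasted for 8 h. These are the liver cells nearest the incoming blood, and 3 libraries of each fast entered the comparison, 6 of the 18 libraries in the study. The study measured total RNA by sequencing in periportal and pericentral hepatocytes of wild-type (WT) male C57BL/6J mice aged 12 weeks, all kept on normal chow, in the fed state and after both fasts, to follow how genes of glucose production change across the lobule between fed and starved states. The library names carry the word digitonin, a detergent used in liver perfusion to destroy the hepatocytes at one end of the lobule so that those of the other end can be collected. For 3 days every mouse had food in the daytime only, from 9:00 to 5PM. On the experimental day it also had 20% sucrose in its drinking water. Fed mice were killed at 13:00 after 4 h of feeding. For the others food and sucrose water were withdrawn at 13:00, and they were killed at 21:00 (8 h) or at 13:00 on the following day (24 h). The labels do not state whether the 3 libraries of a group came from separate mice, so the tests measure the spread between these libraries. The 8 h and 24 h groups also differ by clock hour, and the length of the fast and the hour of the day cannot be told apart between them. The fed libraries share their clock hour with the 24 h libraries and are given beside them. All genes were compared: of the 28030 genes in the table, 12477 had enough counts to be tested.

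Early in a fast the liver spends its glycogen and still makes fat from the last meal. As the fast goes on, it burns fatty acids that arrive from adipose tissue, makes ketone bodies from them, and builds glucose from lactate, glycerol and amino acids. Periportal hepatocytes are the chief site of gluconeogenesis and urea synthesis. The liver also holds a circadian clock, a loop of transcription factors (the activators BMAL1, CLOCK and NPAS2 against the repressors PER and CRY) that turns many metabolic genes on and off over the day.

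Between 8 h and 24 h of fasting, 931 genes (7.46% of those tested) changed in periportal hepatocytes. Of these, 402 (3.22%) were higher and 529 (4.24%) lower at 24 h. Those that rose included the period genes of the circadian clock, 11 of 32 genes of fatty acid oxidation and 5 of 28 of sterol synthesis. Those that fell included 17 of 36 genes of protein folding in the endoplasmic reticulum, 6 of 21 of fat synthesis, the liver pyruvate kinase, the liver glycogen phosphorylase and the bile salt export pump. The enzymes that define gluconeogenesis, Pck1 and G6pc, did not pass the test. A gene counts as changed, or called, at an adjusted p under 0.05 in edgeR's quasi-likelihood test with Benjamini-Hochberg adjustment over all 12477 genes. Changes were mostly modest, with a median size of 0.63 on the log2 scale among the called genes, while 72 rose and 131 fell at least 2-fold. In 918 of the 931 called genes the libraries of the 2 fasts did not overlap, so a lack of overlap adds little to a call. The share without overlap over all tested genes is not given here. For 3 libraries against 3, full separation alone has an exact two-sided permutation p of 0.1. Where a gene below did not pass the test, a lack of overlap is therefore a description and no evidence of a change. Scaling the libraries without their 20 most abundant genes gave 211 higher and 457 lower calls. The count also depended on single libraries: it was 335 without 24 h replicate 2, 552 without 24 h replicate 3, 416 without 8 h replicate 2 and 588 without 8 h replicate 3. Levels are in CPM, counts scaled to the TMM-adjusted size of each library, and compare one gene between libraries, not one gene with another. Fold changes are log2, 24 h minus 8 h.

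The 6 libraries held 18359911 to 26263788 estimated counts each, and mitochondrial genes took 8.16 to 9.80% of them. Summed over 21 periportal markers they reached 22400 to 37300 CPM, against 12500 to 21500 in the fasted pericentral libraries. The sum of 22 pericentral markers was 846 to 1870 CPM at 8 h and 807 to 2640 at 24 h, against 13000 to 21900 in the fasted pericentral libraries. None of the 22 pericentral markers was called between the fasts, and of the 21 periportal markers 1, Asl, was called higher. Of all tested genes 7.46% were called. Sinusoidal endothelial markers summed to 9.45, 16.1 and 73.3 CPM at 8 h and to 8.33, 35.6 and 38.4 at 24 h, and Kupffer cell and leukocyte markers to 2.02, 18.4 and 25.4 and to 4.08, 20.1 and 43.6. None of those markers was called, though Sox9, 1 of 6 cholangiocyte markers tested, fell by 1.09; the part of other cells in the changes was not tested. The library 8 h replicate 1 had the lowest periportal sum (22400) and stood apart for several fasting genes below. In whole cell populations, a change in the mix of cells and a change per cell cannot be told apart.

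**Figure D1:**
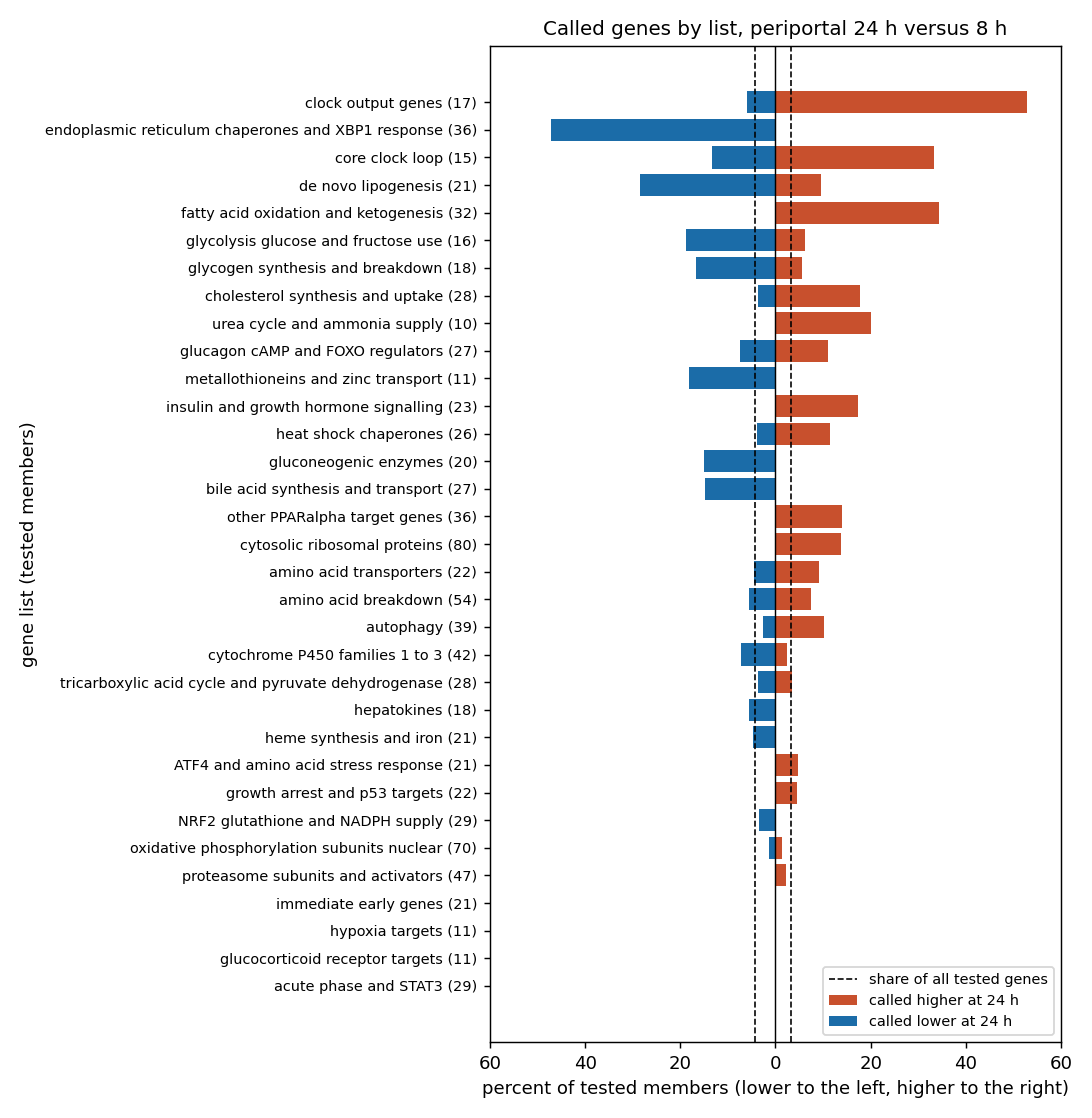
Share of each gene list that was called, as percent of its tested members (bars to the right, higher at 24 h; bars to the left, lower at 24 h), with the number tested in brackets. Dashed lines mark the shares over all tested genes, 3.22% higher and 4.24% lower; clock output genes and endoplasmic reticulum chaperones have the longest bars.

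Among called genes with libraries that did not overlap and at least 10 CPM at the higher time, 6 of the 10 largest rises were in genes of the circadian clock. Of 17 clock output genes, 9 rose and 1 fell, with a median change of 1.10, and of 15 genes of the core loop 5 rose and 2 fell, with a median of -0.06. The median over all tested genes was -0.02. Dbp, which encodes a PAR bZIP transcription factor driven by the clock (chromosome 7, 45705088 to 45710203, plus strand in GRCm38), measured 1.17, 1.11 and 1.26 CPM at 8 h and 20.6, 19.7 and 11.3 at 24 h (log2 fold change 3.86, SE 0.57, adjusted p = 0.00172). Every 24 h library exceeded every 8 h library by far, and the fed libraries, at 12.8, 24 and 23, overlapped the 24 h ones. Exons of other genes on the opposite strand cover 18% of the exon bases of Dbp, and the library kit named in the labels does not mark strand. Its relative Tef measured 35, 43.6 and 46.4 CPM at 8 h and 166, 167 and 124 at 24 h (log2 fold change 1.87, SE 0.24, adjusted p = 0.000393), again with the fed libraries (116, 161 and 146) among the 24 h ones. Hlf, the other member of that family, went from 41, 41.1 and 43.1 to 59.5, 65.5 and 51.3 CPM (log2 fold change 0.49, SE 0.13, adjusted p = 0.0351), a call that did not hold with 24 h replicate 2 left out (adjusted p = 0.157) nor without 4 of the other 5 libraries (0.072 to 0.105).

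The period genes, which encode the repressors of the loop, rose together. Per2 measured 5.65, 6.27 and 4.52 CPM at 8 h and 26.4, 26.2 and 28.2 at 24 h (log2 fold change 2.30, SE 0.17, adjusted p = 2.97e-06), with fed libraries at 59.1, 72.6 and 56.3. Per3 measured 1.98, 2.05 and 2.1 and 13.6, 13.9 and 8.97 (log2 fold change 2.57, SE 0.29, adjusted p = 0.000178), with fed libraries at 21.9, 29.3 and 25.5. Both were therefore highest in the fed libraries and lowest at 8 h, with no overlap among the 3 groups. Per1 differed from them: its fed level (19.3, 24 and 22.7 CPM) overlapped its 8 h level (22.5, 20.7 and 27.6), and only the 24 h libraries stood above (42.3, 46.6 and 47.1; log2 fold change 0.94, SE 0.17, adjusted p = 0.00337). Ciart, a further repressor of the clock, measured 0.444, 1.82 and 3.96 CPM at 8 h and 12.9, 24.7 and 7.08 at 24 h (log2 fold change 2.86, SE 0.56, adjusted p = 0.00845), with a wide spread within both fasts but no overlap; its call was lost with the 9 periportal libraries fitted alone (0.0672) and with the 6 compared (0.154). Nr1d2, the nuclear receptor REV-ERBβ, rose from 20.2, 20.8 and 24.7 to 59, 61.1 and 58.1 CPM (log2 fold change 1.44, SE 0.20, adjusted p = 0.000698).

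The activators went the opposite way. Npas2, a partner of BMAL1, was at 8.68, 6.18 and 4.71 CPM at 8 h and almost undetected at 24 h (0.112, 0.0831 and 0.184 CPM; log2 fold change -5.64, SE 0.45, adjusted p = 4.58e-06). Its 24 h level rests on 8 estimated counts over 3 libraries against 455 at 8 h. That is a 52.7-fold ratio with an exact 95% interval of 26.5 to 123, which covers counting error only. Arntl, which encodes BMAL1, fell from 34.6, 30.9 and 30.5 to 9.22, 5.4 and 13.9 CPM (log2 fold change -1.75, SE 0.34, adjusted p = 0.00756), and the fed libraries stood lowest of all (6.11, 3.95 and 5.69). Clock, Cry1 and Nr1d1 were also looked at after their values had been seen, and none passed the test. Clock itself was at 34, 31.3 and 31.6 CPM at 8 h and 21.6, 11.3 and 20.4 at 24 h, without overlap (adjusted p = 0.219). For Cry1 and Nr1d1 the fasts overlapped, at 35.7 to 43.5 against 26.8 to 49.7 CPM and 5.25 to 7.96 against 7.59 to 12.9 CPM.

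**Figure D2:**
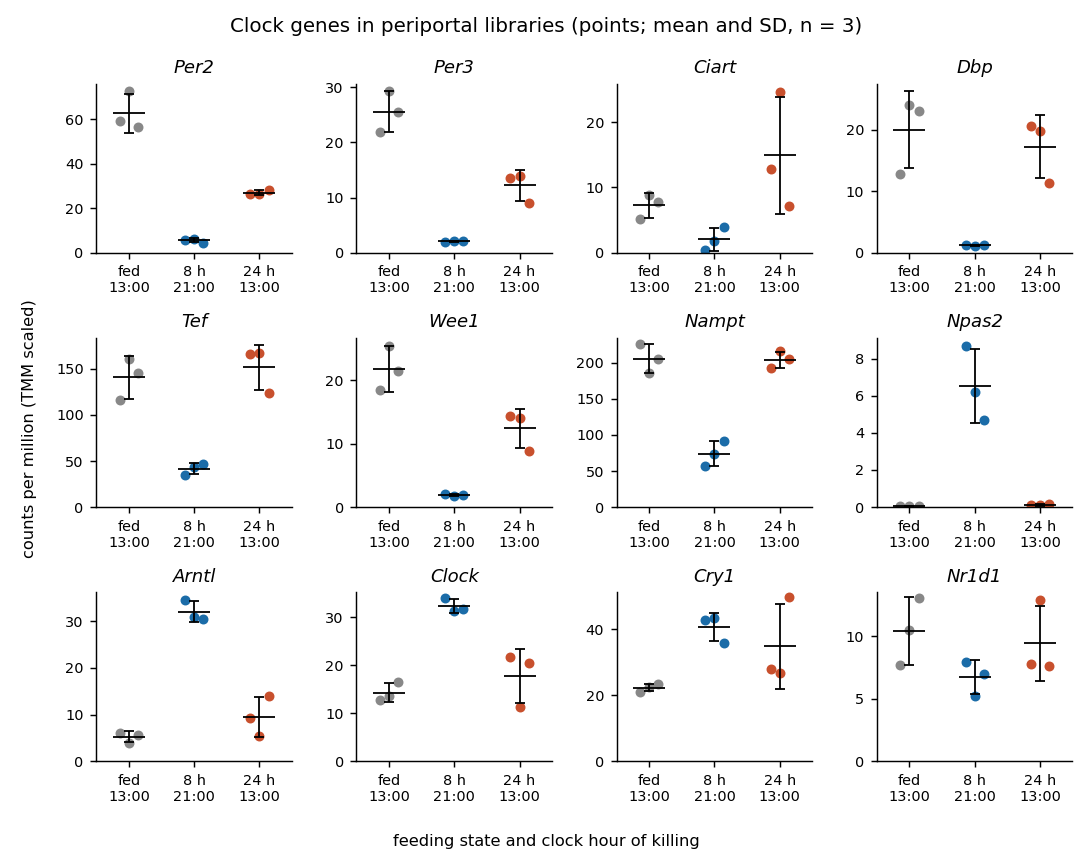
Level (CPM) of 12 clock genes in the 9 periportal libraries (points), by feeding state and clock hour, with mean and SD (black, n = 3); each vertical axis starts at 0. Per2, Per3, Dbp, Tef, Wee1 and Nampt are lowest and Npas2, Arntl and Clock highest in the 8 h libraries, which alone were taken at 21:00.

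Among the other outputs of the clock, Wee1, the kinase that holds cells before mitosis, rose from 2.06, 1.73 and 1.82 to 14.4, 14 and 8.83 CPM (log2 fold change 2.72, SE 0.32, adjusted p = 0.000251). Nampt, the rate-limiting enzyme of NAD salvage, rose from 57.1, 73 and 91.6 to 193, 216 and 205 CPM (log2 fold change 1.47, SE 0.21, adjusted p = 0.000943), back to the range of the fed libraries (186 to 226). Por, the reductase that supplies electrons to cytochrome P450 enzymes, behaved otherwise: all 24 h libraries (1090, 1120 and 1060 CPM) stood above both the 8 h (233, 488 and 530) and the fed ones (231, 318 and 304), with a change from 8 h of 1.39 (SE 0.24, adjusted p = 0.00343). Coq10b rose by 1.36, Noct by 1.10 and Gys2, liver glycogen synthase, by 1.04 on the log2 scale, each without overlap. Lonrf3 fell from 10.9, 12.4 and 9.22 to 5.31, 5.11 and 6.94 CPM (log2 fold change -0.90, SE 0.20, adjusted p = 0.0127), a call lost without 24 h replicate 2 (adjusted p = 0.0671) or 8 h replicate 2 (0.0597).

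Some promoters of these genes carry the letters that clock factors are known to read, and a few are printed here because the genes lead the comparison. The windows run from 250 bases before to 50 bases after a RefSeq start site (GRCm38.p6). Matches were sought on both strands for the E-box CACGTG of BMAL1 and its partners, the D-box TTATGTAA of DBP, TEF and HLF, and the ROR element TAGGTNA of the ROR and REV-ERB receptors. Of all 32817 windows, 7.15% hold the E-box, 0.935% the D-box and 8.29% the ROR element. These shares are per window, while the counts that follow are per gene, with a match in any window of the gene. Of 12 core loop genes found in the promoter table, 4 hold an E-box (Ciart, Per1, Cry1, Bhlhe41), 1 a D-box (Per3) and 1 a ROR element (Arntl). Of 14 clock output genes found there, 4 hold an E-box (Tef, Coq10b, Lonrf3, Tspan4), 1 a D-box (Coq10b) and 2 a ROR element (Coq10b, Nfil3). The E-box therefore occurs in genes that rose, in genes that did not pass the test and in Lonrf3, which fell. Below are the 250 bases before the start site, 5′ to 3′ on the strand of the gene, with each match in capitals: E-boxes in Ciart (chr3:95882229-95882478, minus strand) and Tef (chr15:81802423-81802672, plus strand) and D-boxes in Per3 (chr4:151044666-151044915, minus strand). For Arntl they are 30-base stretches around its ROR elements (chr7:113207494-113207523 and chr7:113207530-113207559, plus strand).
Ciart: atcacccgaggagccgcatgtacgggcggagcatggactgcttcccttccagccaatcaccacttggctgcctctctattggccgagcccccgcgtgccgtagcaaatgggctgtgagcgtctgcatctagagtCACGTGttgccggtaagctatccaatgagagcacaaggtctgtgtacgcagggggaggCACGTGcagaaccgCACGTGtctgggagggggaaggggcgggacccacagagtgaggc
Tef: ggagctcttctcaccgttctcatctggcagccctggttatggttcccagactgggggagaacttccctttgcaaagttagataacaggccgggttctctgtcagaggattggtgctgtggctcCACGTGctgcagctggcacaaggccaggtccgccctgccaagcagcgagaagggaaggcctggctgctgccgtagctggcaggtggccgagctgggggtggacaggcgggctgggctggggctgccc
Per3: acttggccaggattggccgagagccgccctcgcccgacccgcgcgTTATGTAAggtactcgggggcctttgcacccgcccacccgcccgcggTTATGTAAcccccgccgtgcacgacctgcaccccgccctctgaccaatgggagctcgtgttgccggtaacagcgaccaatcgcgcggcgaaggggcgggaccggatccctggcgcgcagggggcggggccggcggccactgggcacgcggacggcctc
Arntl, first element: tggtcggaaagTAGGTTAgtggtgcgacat
Arntl, second element: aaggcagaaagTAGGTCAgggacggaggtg
The E-boxes of Ciart begin 116, 58 and 44 bases before its start site and the D-boxes of Per3 205 and 158 bases before. No match was found in the windows of Dbp, Nr1d2 and Npas2, which says only that these letters are not within those 300 bases. A match is a description of the sequence and was not tested for binding.

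The genes of glucose production did not follow one course. Pck1, the gluconeogenic enzyme phosphoenolpyruvate carboxykinase, measured 2570, 6060 and 5360 CPM at 8 h and 6030, 5500 and 6220 at 24 h, and the groups overlapped (log2 fold change 0.34, SE 0.46, adjusted p = 0.731). The low value belongs to 8 h replicate 1, while the other 5 fasted libraries lay between 5360 and 6220 CPM. The fed libraries were at 593, 927 and 2200 CPM, and the gene was higher than fed at 8 h (log2 1.91, adjusted p = 0.0145) and at 24 h (log2 2.26, adjusted p = 0.00449), comparisons that share the fed libraries. G6pc, which releases free glucose, measured 746, 1350 and 1570 CPM at 8 h and 892, 1000 and 1600 at 24 h, fully overlapping (log2 fold change -0.07, SE 0.34, adjusted p = 0.942). It too was higher than fed at both times (log2 1.70 and 1.63, adjusted p = 0.00472 and 0.00441). Fbp1, fructose bisphosphatase, was at 1310 to 1450 CPM at 8 h and 1330 to 1450 at 24 h (log2 fold change 0.02, SE 0.12, adjusted p = 0.955). Pcx, pyruvate carboxylase, was at 108, 237 and 152 CPM and then 109, 100 and 98.6 (log2 fold change -0.69, SE 0.34, adjusted p = 0.244). None of the 4 passed in any of the 16 alternative analyses. A missed threshold does not show that the levels were equal.

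Over the 20 gluconeogenic enzymes, none rose and 3 fell, with a median change of -0.04. Gpi1 and Eno1, which fell, encode enzymes that glycolysis runs in the opposite direction. Gpi1, glucose-6-phosphate isomerase, went from 444, 608 and 585 to 220, 216 and 220 CPM (log2 fold change -1.32, SE 0.24, adjusted p = 0.00412), with 24 h libraries nearly identical to each other. Eno1, enolase, went from 918, 1100 and 1030 to 657, 802 and 694 CPM (log2 fold change -0.50, SE 0.14, adjusted p = 0.0354). Leaving out any one library except 8 h replicate 1 gave Eno1 an adjusted p between 0.0529 and 0.125. Among 27 genes of glucagon, cAMP and FOXO signalling, 3 rose and 2 fell, with a median of 0.07. Ppargc1a, the coactivator PGC-1α, rose from 10.5, 18.7 and 16.4 to 33.5, 41.7 and 35.1 CPM (log2 fold change 1.28, SE 0.23, adjusted p = 0.00379), while the fed libraries (10.4 to 13.5) overlapped those of 8 h. Klf15 rose by 0.75, Creb3l2 fell by 1.58 and Prkar2a by 0.39 on the log2 scale (adjusted p = 0.0316, 0.017 and 0.0212), and each lost its call when any of 3 single libraries was left out, 24 h replicate 2 among them (0.114, 0.0856 and 0.107).

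Of 16 genes of glucose and fructose use, 3 fell and 1 rose, with a median of -0.16. Pklr, liver pyruvate kinase, which ends glycolysis (chromosome 3, 89136142 to 89146784, plus strand), was at 929, 904 and 774 CPM at 8 h and 188, 181 and 136 at 24 h (log2 fold change -2.37, SE 0.33, adjusted p = 0.000943). Its 24 h libraries lay below every 8 h and every fed library (1230, 1280 and 500). Khk, ketohexokinase, the first enzyme of fructose use, fell from 154, 260 and 228 to 88.9, 104 and 90 CPM (log2 fold change -1.18, SE 0.24, adjusted p = 0.00943), and Tkfc, triokinase, the third, from 788, 951 and 1080 to 284, 376 and 215 (log2 fold change -1.69, SE 0.21, adjusted p = 0.000352). Opposite-strand exons of other genes cover 22% of the exon bases of Pklr and 20% of those of Tkfc. Galk1, galactokinase, rose from 48.5, 42.5 and 42.3 to 70.5, 66 and 76.5 CPM (log2 fold change 0.68, SE 0.10, adjusted p = 0.00131).

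Of 18 glycogen genes tested, 3 fell and 1 rose, with a median of -0.08. Gys2, liver glycogen synthase, is not among these 18. It was counted with the clock output genes and rose by 1.04 (adjusted p = 0.00427). Pygl, the liver phosphorylase that breaks glycogen down, fell from 730, 928 and 853 to 313, 369 and 257 CPM (log2 fold change -1.42, SE 0.18, adjusted p = 0.00036). Gbe1, the branching enzyme, fell from 145, 170 and 217 to 113, 90.2 and 92.3 CPM (log2 fold change -0.85, SE 0.16, adjusted p = 0.00486). Ppp1r3c, which targets protein phosphatase 1 to glycogen and so favours its synthesis, fell from 132, 175 and 201 to 26.1, 43.1 and 19.6 CPM (log2 fold change -2.51, SE 0.43, adjusted p = 0.00419), having been at 84.8, 51.9 and 31.8 in the fed libraries. Ppp1r3g, another such targeting subunit, moved the other way: 2 of the 8 h libraries had no count and the third 0.419 CPM, and the 24 h libraries were at 5.98, 4.36 and 15.7 (log2 fold change 5.98, SE 1.21, adjusted p = 0.011). On summed counts, 553 against 9, the ratio was 66.3 with an exact 95% interval of 34.7 to 146 for counting error only. The fed libraries, at 0, 0.24 and 0.147 CPM, were as low as those of 8 h. The call was lost only when the 6 libraries were fitted alone.

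Of 21 genes of de novo lipogenesis, 6 fell, 2 rose and 13 did not pass, and the median change was -0.99, against -0.02 over all genes. Acacb, acetyl-CoA carboxylase 2, whose product malonyl-CoA blocks the entry of fatty acids into mitochondria (chromosome 5, 114146535 to 114250761, plus strand), was at 227, 341 and 253 CPM at 8 h and 43.4, 41.1 and 50.8 at 24 h (log2 fold change -2.60, SE 0.49, adjusted p = 0.00712). Me1, malic enzyme, a source of NADPH, fell from 472, 520 and 514 to 127, 138 and 108 CPM (log2 fold change -2.02, SE 0.34, adjusted p = 0.0034). Acss2, which makes acetyl-CoA from acetate, fell from 318, 575 and 479 to 137, 95.4 and 105 CPM (log2 fold change -2.02, SE 0.35, adjusted p = 0.00376). In all 3 genes the 24 h libraries lay below every 8 h library, and one fed library, replicate 3, was far lower than the other fed ones (42.5, 208 and 141 CPM). Elovl5, an elongase of polyunsaturated fatty acids, was highest at 8 h: 699, 773 and 514 CPM, against 194, 220 and 326 at 24 h and 267, 258 and 211 fed (log2 fold change -1.42, SE 0.21, adjusted p = 0.000926). Fads2, the desaturase of the same pathway, was its mirror, at 327, 306 and 327 CPM at 8 h, 570, 510 and 627 at 24 h and 617, 528 and 513 fed (log2 fold change 0.83, SE 0.14, adjusted p = 0.00225).

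Acaca, acetyl-CoA carboxylase 1, was at 534, 656 and 288 CPM fed, 167, 235 and 153 at 8 h and 71.3, 84.6 and 57.5 at 24 h, with no overlap among the 3 groups (log2 fold change -1.38, SE 0.32, adjusted p = 0.0169); the difference of 8 h from fed was -1.41 (adjusted p = 0.00756). Mlxipl, the carbohydrate-sensing factor ChREBP, fell from 241, 153 and 104 to 77.9, 81.8 and 65 CPM (log2 fold change -1.15, SE 0.25, adjusted p = 0.0133), with fed libraries at 139, 213 and 114. The calls were lost without 24 h replicate 3 (adjusted p = 0.0699 and 0.0561), and that of Acaca also without 8 h replicate 2 (0.0723). Elovl2 rose by 0.67 (adjusted p = 0.034), lost without any of 4 single libraries. Fasn, Scd1 and Srebf1 were named after their values were seen, and none passed. Fasn, fatty acid synthase, went from 1460, 1530 and 452 CPM fed to 75.3, 111 and 75.2 at 8 h and 33.6, 58.9 and 39.5 at 24 h. Scd1, the stearoyl-CoA desaturase, was at 13400, 18000 and 10800 CPM at 8 h and 5120, 5080 and 4910 at 24 h without overlap (log2 fold change -1.49, SE 0.54, adjusted p = 0.113). Srebf1, the insulin-driven regulator of these genes, was at 51.8 to 71.8 CPM at 8 h and 37.6 to 78 at 24 h, against 624 to 1090 fed.

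Of 32 genes of fatty acid oxidation and ketogenesis, 11 rose and none fell, and the median was 0.40. A change above 0 was seen in 31 of the 32, against 47.3% of all tested genes. Acaa1a, a thiolase of peroxisomal oxidation, rose from 104, 76.2 and 82.8 to 162, 174 and 167 CPM (log2 fold change 0.93, SE 0.14, adjusted p = 0.000926). Slc22a5, the carnitine carrier OCTN2, stepped up from 14.6, 13.7 and 20.3 CPM fed to 42.8, 25.9 and 33.8 at 8 h and 65.5, 80.9 and 88.5 at 24 h (log2 fold change 1.20, SE 0.22, adjusted p = 0.00408). Cpt1a, the rate-limiting carnitine palmitoyltransferase of mitochondria, did the same, at 300, 232 and 317, 434, 345 and 473 and 699, 638 and 620 CPM (log2 fold change 0.64, SE 0.15, adjusted p = 0.0142), with its call lost without 8 h replicate 2 (adjusted p = 0.0756). Etfb, which carries electrons from the acyl-CoA dehydrogenases, rose by 0.58 (adjusted p = 0.00865), though another gene on the same strand shares 58.2% of its exon bases. Eci2 rose by 0.93, Decr2 by 0.73, Decr1 by 0.69, Acadl by 0.62, Acadm by 0.59, Cpt2 by 0.52 and Ppara, the fatty acid receptor of the liver, by 0.52. Of these, Eci2 alone held its call without each single library. The list's count was 6 without 24 h replicate 2, 7 without 24 h replicate 3, 4 without 8 h replicate 2, 6 without 8 h replicate 3 and 21 by DESeq2, with the median between 0.35 and 0.54 in every alternative.

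Of 36 PPARα targets outside that list, 5 rose and none fell, with a median of 0.50. The change was above 0 in 28 of them and below 0 in 8. Acot3 and Acot4, peroxisomal acyl-CoA thioesterases, rose from 16.7, 5.82 and 13.5 to 60.1, 96.9 and 54.1 CPM (log2 fold change 2.55, SE 0.56, adjusted p = 0.016) and from 79.8, 49.2 and 62.1 to 120, 161 and 145 CPM (log2 fold change 1.16, SE 0.24, adjusted p = 0.0112). Neither overlapped, and both calls were lost without 24 h replicate 2 (adjusted p = 0.0648 and 0.0535) or 8 h replicate 2 (0.068 and 0.0553). The Acot genes are near copies of each other, and reads may be shared among them. Acot12 rose by 0.57 and Mgll, monoacylglycerol lipase, by 0.73 (adjusted p = 0.0123 and 0.0319); the first call was lost without 8 h replicate 2 (0.0652) and the second without any of 3 libraries. The count for this list was 1 without 24 h replicate 2 and 0 without 8 h replicate 2. Named after their values were seen, Cyp4a14 and Cyp4a10, omega-hydroxylases, had non-overlapping libraries but wide spreads (1320, 469 and 1220 against 2430, 4650 and 4070 CPM, and 423, 178 and 538 against 1060, 1110 and 1560 CPM; adjusted p = 0.108 and 0.173). Angptl4 was already high at 8 h (229 to 311 CPM, against 11.9 to 17.2 fed) and overlapped that range at 24 h (260 to 364, adjusted p = 0.792). Cd36, Fgf21 and Pdk4, chosen likewise, did not pass either. Their log2 fold changes were -1.82, -0.22 and 0.94 (adjusted p = 0.109, 0.900 and 0.450), that of Cd36 being the lowest of the list.

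**Figure D3:**
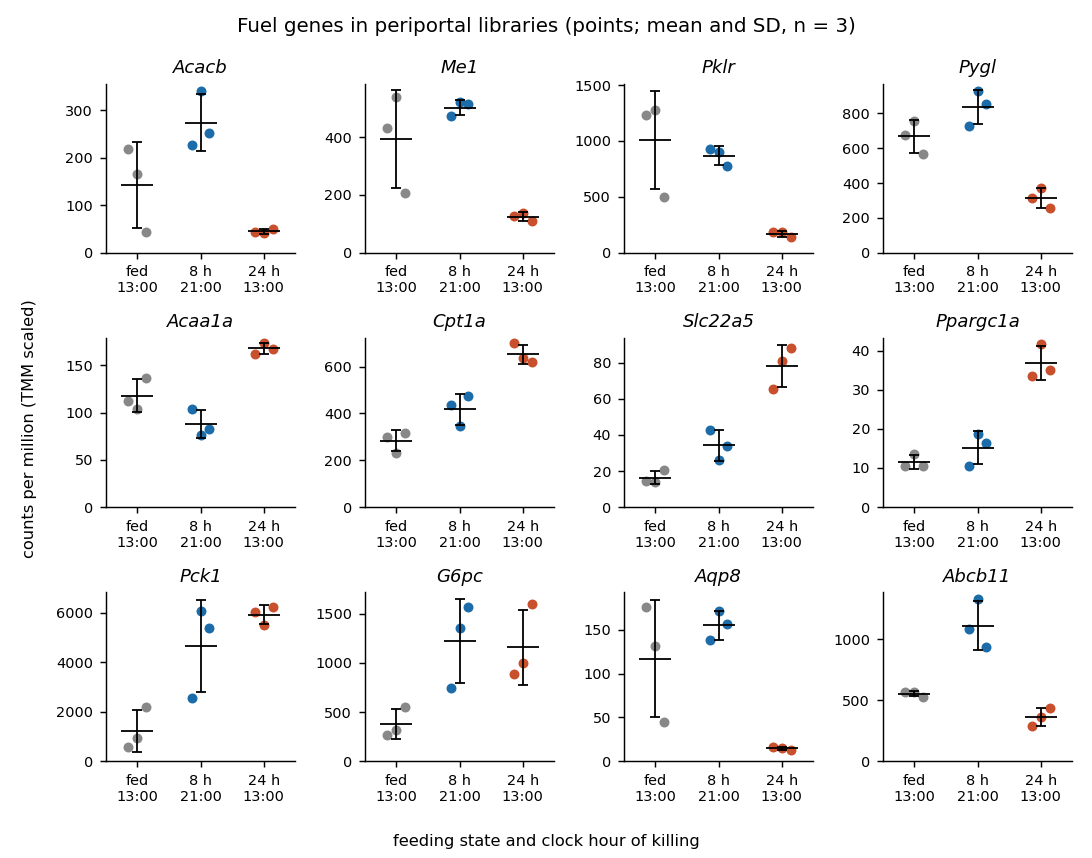
Level (CPM) of 12 genes of fuel use and transport in the 9 periportal libraries (points), by feeding state and clock hour, with mean and SD (black, n = 3); each vertical axis starts at 0. Acacb, Me1, Pklr, Pygl, Aqp8 and Abcb11 are low at 24 h, Acaa1a, Cpt1a, Slc22a5 and Ppargc1a are high, and the fasts overlap for Pck1 and G6pc.

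Of 28 genes of sterol synthesis 5 rose and 1 fell, with a median of 0.19. Idi1, isopentenyl-diphosphate isomerase, went from 240, 277 and 281 CPM fed to 71.8, 83.2 and 70 at 8 h and back up to 160, 152 and 138 at 24 h (log2 fold change 1.001, SE 0.18, adjusted p = 0.00356). Fdft1, squalene synthase, had the same course, at 95.8, 86.6 and 97.3, 20.9, 21.3 and 27 and 58.3, 44.9 and 57.2 CPM (log2 fold change 1.21, SE 0.24, adjusted p = 0.00713). So had Hsd17b7, a sterol reductase of the pathway, at 83.8, 73.1 and 80.2, 42.9, 34 and 52.7 and 81.6, 82.9 and 93.5 CPM (log2 fold change 0.99, SE 0.15, adjusted p = 0.00127), whose 24 h libraries reached the fed range. Msmo1, a sterol demethylase, rose by 1.09 (SE 0.23, adjusted p = 0.0113), a call lost without 8 h replicate 2 (0.0567). Other genes on the opposite strand share 18.3% of the exon bases of Fdft1. The number of higher genes was 3 without 8 h replicate 2.

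Among genes with at least 10 CPM at the higher time and libraries that did not overlap, the largest fall was that of Aqp8, a water and hydrogen peroxide channel of the hepatocyte (chromosome 7, 123462291 to 123468004, plus strand). It was at 138, 171 and 156 CPM at 8 h and 16, 15.8 and 12.7 at 24 h (log2 fold change -3.38, SE 0.54, adjusted p = 0.00326), a ratio of 10.4 between the means, with fed libraries at 176, 131 and 44.3. Of 27 genes of bile acid synthesis and transport 4 fell and none rose, with a median of -0.13. Abcb11, the bile salt export pump, was at 1080, 1330 and 939 CPM at 8 h, above its fed level (565, 564 and 530), and at 291, 363 and 433 at 24 h, below it (log2 fold change -1.62, SE 0.16, adjusted p = 3.66e-05). Hsd3b7, an early enzyme of bile acid synthesis, fell from 296, 204 and 184 to 95.1, 87.3 and 71.6 CPM (log2 fold change -1.43, SE 0.18, adjusted p = 0.00036), close to its fed level (80.7, 93.7 and 89). Exons of other genes overlap 62.0% of its exon bases on the same strand and 62.4% on the opposite one. Fgfr4 and Slco2b1 fell by 0.62 and 0.53 on the log2 scale (adjusted p = 0.0442 and 0.0135), and lost the call without any of 5 and 4 single libraries, 24 h replicate 2 among them (0.179 and 0.0656).

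The 10 largest falls by that rule also held Acacb, Pklr and Ppp1r3c, described above, and 6 other genes. Hcn3, a cation channel gene, fell from 74.4, 61 and 58.2 to 11.4, 12.1 and 8.64 CPM (log2 fold change -2.59, SE 0.52, adjusted p = 0.011). Slc17a4, an organic anion and phosphate transporter, fell from 36.8, 54.9 and 41.8 to 8.16, 10.4 and 7.91 CPM (log2 fold change -2.33, SE 0.31, adjusted p = 0.000638). Atp2b2, a calcium pump of the plasma membrane, stepped down from 28.8, 25.9 and 15.1 CPM fed to 14.1, 10 and 6.24 at 8 h and 1.01, 2.66 and 1.33 at 24 h (log2 fold change -2.57, SE 0.53, adjusted p = 0.0104). In each the 24 h libraries lay below all 8 h libraries. Nid2, a basement membrane protein, fell by 2.57 and Cyp2c70, the enzyme that makes muricholic acid in the mouse, by 2.33 (adjusted p = 0.00301 and 0.000693), both lost only when the 6 libraries were fitted alone. Slc22a7, an organic anion transporter, fell from 30.9, 57.3 and 34.2 to 8.55, 3.78 and 12.8 CPM (adjusted p = 0.0468), a call lost without any one of the 6 libraries (0.0625 to 0.168). The largest rises by the same rule (called, no overlap, at least 10 CPM at the higher time) outside the clock and PPARα lists were in Maff, a small bZIP factor (3.67, 2.8 and 2.38 to 4.3, 11 and 18.5 CPM, log2 fold change 1.93, SE 0.42, adjusted p = 0.0127), Gpcpd1, which cleaves glycerophosphocholine (19, 46.3 and 75.1 to 241, 148 and 106 CPM, log2 fold change 1.82, SE 0.44, adjusted p = 0.0246), and Map2k6, a kinase of the p38 pathway (2.3, 4.13 and 5.36 to 14, 15.9 and 7.72 CPM, log2 fold change 1.68, SE 0.31, adjusted p = 0.00483). Maff and Gpcpd1 each lost the call without any of 3 libraries (adjusted p = 0.0519 to 0.0834).

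Of 36 genes for endoplasmic reticulum chaperones and the XBP1 response, 17 fell and none rose, 33 had a change below 0, and the median was -0.53. Above 0 were 3 of the list, against 47.3% of all tested genes. Pdia6, a protein disulphide isomerase, fell from 359, 465 and 423 to 174, 177 and 224 CPM (log2 fold change -1.12, SE 0.16, adjusted p = 0.000664). Calr, the lectin chaperone calreticulin, fell from 828, 935 and 861 to 424, 348 and 463 CPM (log2 fold change -1.09, SE 0.19, adjusted p = 0.00276). Ern1, the stress sensor IRE1α that splices Xbp1 RNA, fell from 136, 105 and 102 to 61.8, 37 and 60 CPM (log2 fold change -1.11, SE 0.21, adjusted p = 0.00544). In these 3 the 8 h libraries were still near the fed ones (457, 368 and 468, 1100, 829 and 1150 and 109, 124 and 104 CPM) and the 24 h libraries stood apart below both. Ero1lb, an oxidase that recharges the isomerases, had stepped down already, from 243, 178 and 207 CPM fed to 141, 140 and 131 at 8 h and 65, 64.6 and 90.2 at 24 h (log2 fold change -0.91, SE 0.15, adjusted p = 0.00239).

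Members with other tasks were also called. Hspa13, an HSP70 family member, changed by -0.89, Edem1, which marks misfolded glycoproteins for disposal, by -0.70, Derl2, of the export channel, by -0.53, and Sec61b, of the import channel, by -0.51 (adjusted p = 0.00165, 0.00168, 0.00459 and 0.00738). Pdia4, Pdia3, Sec61a1, Canx, Derl1, Selenok, Txndc11, Xbp1 and Sdf2l1 were called too, with changes from -1.42 (Sdf2l1) to -0.40 (Selenok), and each of these lost its call without at least 1 single library. The list's count was 11 without 24 h replicate 1, 8 without 24 h replicate 2, 10 without 8 h replicate 2, 11 without 8 h replicate 3 and 25 by DESeq2, and the median stayed between -0.58 and -0.52. Hspa5, the master chaperone BiP, named after its values were seen, had no overlap (637, 721 and 727 CPM at 8 h, 478, 410 and 577 at 24 h) and did not pass (log2 fold change -0.51, SE 0.18, adjusted p = 0.105). Its larger step was from the fed level of 2050, 1360 and 2320 CPM. Herpud1, chosen likewise, was higher at 24 h in all 3 libraries (429, 473 and 496 CPM, then 607, 752 and 698) and did not pass (adjusted p = 0.068).

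**Figure D4:**
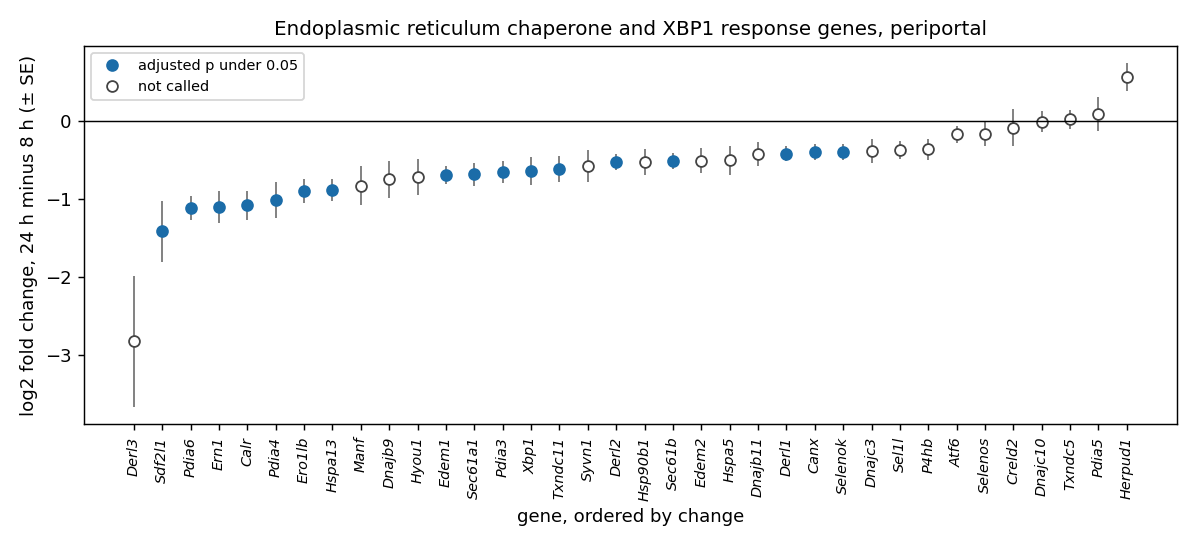
Log2 fold change, 24 h minus 8 h, with its standard error for the 36 endoplasmic reticulum genes in periportal hepatocytes, ordered by size; filled points passed an adjusted p of 0.05. The 17 filled points all lie below 0, and 3 of the 36 genes lie above it, against 47.3% of all tested genes.

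Some of these promoters hold the ER stress element, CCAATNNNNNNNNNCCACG, which the factors ATF6 and XBP1 with NF-Y are known to read. It was found in 39 of the 32817 windows (0.119%) and in 9 of the 29 list members present in the promoter table. The first count is per window and the second per gene, with a match in any window of the gene. The list was itself drawn up from genes of this response, and the shares were not tested against each other. These are Calr, Canx and Pdia6, which fell, and Creld2, Derl3, Dnajc3, Hsp90b1, Hspa5 and Syvn1, which did not pass. Matches in 4 genes are printed on the strand of the motif, with the fixed ends in capitals: Pdia6 (chr12:17266491-17266509), Calr (chr8:84847075-84847093), Canx (chr11:50325800-50325818) and Hspa5 (chr2:34772025-34772043). They were chosen after the values were seen, to show members that fell beside Hspa5.
Pdia6: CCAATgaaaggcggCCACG
Calr: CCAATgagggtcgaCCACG
Canx: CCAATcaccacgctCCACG
Hspa5: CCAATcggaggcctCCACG
The bases at the fixed ends are the same by construction of the search, and the 9 between them differ from gene to gene. The element occurs in members that passed and in members that did not.

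Of 26 cytosolic and mitochondrial heat shock genes 3 rose and 1 fell, with a median of 0.38. Dnajb4 rose from 30.7, 31.7 and 26.6 to 55.9, 53.5 and 92 CPM (log2 fold change 1.18, SE 0.21, adjusted p = 0.00379). Hspa8, the constitutive HSC70, and its helper Dnaja1 rose by 0.80 and 0.72 (adjusted p = 0.0353 and 0.0221), and both lost the call without 24 h replicate 3, the highest library in each (adjusted p = 0.183 and 0.109), and without 8 h replicate 3 (0.131 and 0.0887). Hspa8 also lost it without 8 h replicate 1 (0.0623), without 8 h replicate 2 (0.0502), with the replicate number as a block (0.0512), with the 9 periportal libraries alone (0.0935) and with the 6 compared (0.153), and Dnaja1 with those 6 (0.0628). Cryab fell by 1.86 from a level of 0.888 to 1.77 CPM, and lost its call without any of 5 libraries. Without 24 h replicate 3 the list's median was 0.10 and 1 gene was called, as without 8 h replicate 3.

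Of 10 urea cycle genes 2 rose and none fell, with a median of 0.09: Slc25a13, the aspartate-glutamate carrier citrin, from 174, 187 and 180 to 280, 261 and 247 CPM (log2 fold change 0.54, SE 0.12, adjusted p = 0.013), and Asl, argininosuccinate lyase, from 661, 1090 and 1110 to 1630, 1660 and 1580 CPM (log2 fold change 0.76, SE 0.21, adjusted p = 0.0331). The call of Asl was lost without any of 5 single libraries (adjusted p = 0.0534 to 0.102). Of 22 amino acid transporters 2 rose and 1 fell, with a median of 0.14. Slc7a2, the carrier of arginine and lysine, climbed from 252, 281 and 345 CPM fed to 349, 647 and 688 at 8 h and 1370, 1520 and 1160 at 24 h, without overlap (log2 fold change 1.26, SE 0.21, adjusted p = 0.0022). Slc38a3 rose by 0.60 and Slc36a1 fell by 0.76 (adjusted p = 0.0417 and 0.0153), calls that 5 and 3 single libraries decided.

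Of 54 genes of amino acid breakdown 4 rose and 3 fell, with a median of 0.08. Ahcy, which clears S-adenosylhomocysteine, rose by 0.69, Ivd, of leucine breakdown, by 0.44, and Afmid, of tryptophan breakdown, by 0.52, while Amt, of glycine cleavage, fell by 0.78 (adjusted p = 0.0194, 0.0239, 0.013 and 0.0137). Each lost its call without at least 1 single library, and Afmid shares 44.2% of its exon bases with another gene on its strand. Sds, serine dehydratase, and Tat, tyrosine aminotransferase, named after their values were seen, were both low in 8 h replicate 1: Sds was at 222, 629 and 710 CPM and then 713, 1010 and 689, and Tat at 964, 4440 and 3010 and then 4160, 5080 and 6190 (adjusted p = 0.401 and 0.255). Among 21 ATF4 targets Sesn2 alone rose, by 0.70 (adjusted p = 0.037), lost without any single library.

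Several smaller groups held 1 or a few genes that held in all 16 alternatives. Slc30a10, a manganese exporter, fell from 144, 147 and 127 to 22.8, 32.1 and 47.1 CPM (log2 fold change -2.03, SE 0.23, adjusted p = 0.000178) and Slc39a8, a zinc and manganese importer, from 41.6, 40.1 and 41 to 27.1, 29.6 and 28.6 (log2 fold change -0.53, SE 0.09, adjusted p = 0.00346); they were the 2 called of 11 genes of metallothioneins and zinc transport (median -0.20). The metallothioneins Mt1 and Mt2, named after their values were seen, stood higher at 24 h without overlap (52, 160 and 180 against 393, 415 and 388 CPM and 21.7, 104 and 154 against 307, 315 and 176 CPM) and did not pass (adjusted p = 0.167 and 0.264). Inhba, which encodes activin A, stepped down from 73.4, 60.5 and 50.9 CPM fed to 40.5, 21.7 and 21.5 at 8 h and 7.04, 5.32 and 9.15 at 24 h (log2 fold change -1.96, SE 0.31, adjusted p = 0.00202), the 1 called of 18 hepatokine genes (median -0.07). Bnip3, a receptor for mitophagy, rose from 169, 152 and 201 to 353, 385 and 384 CPM (log2 fold change 1.10, SE 0.15, adjusted p = 0.000638). It was 1 of 4 that rose among 39 autophagy genes, with 1 that fell and a median of 0.03, and opposite-strand exons cover 22.3% of its exon bases. Map1lc3a rose by 0.60, Atg16l1 by 0.39 and Atg13 fell by 0.58, each lost without 24 h replicate 2 (adjusted p = 0.0648, 0.064 and 0.0656). Slc11a2, the iron importer DMT1, fell from 49.7, 39.9 and 37.3 to 28.8, 24.7 and 23.6 CPM (log2 fold change -0.72, SE 0.12, adjusted p = 0.0027), the 1 called of 21 genes of heme and iron (median -0.13).

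Of 80 ribosomal protein genes 11 rose and none fell. The list's median change was 0.30, and 79 of the 80 values were above 0, most of them in genes that did not pass. Over all tested genes, 47.3% of the values were above 0. Rps27 went from 65.8, 70.5 and 76.8 to 93.7, 121 and 107 CPM (log2 fold change 0.59, SE 0.12, adjusted p = 0.00897), Rps19 rose by 0.42, Rps14 by 0.45 and Rpl35a by 0.38. The count ran from 0 without 24 h replicate 2 to 39 by DESeq2. It was 23 without 24 h replicate 1, 2 without 24 h replicate 3, 8 h replicate 1 or 8 h replicate 3, and 1 without 8 h replicate 2, while the median stayed between 0.25 and 0.36. These genes have many processed copies, among which reads may be shared.

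In the remaining lists few genes or none passed. Of 42 cytochrome P450 genes and regulators of families 1 to 3, 1 rose and 3 fell (median -0.10): Nr1i2, the receptor PXR, by 0.45, and Cyp2c70, Cyp2c54 and Cyp2b10, the last with 8 h replicates 2 and 3 high (5.57, 111 and 167 CPM at 8 h, 5.87, 11.8 and 5.98 at 24 h, overlapping). Of 28 genes of the tricarboxylic acid cycle Fh1 rose by 0.73 and Cs fell by 0.61 (median -0.03). Of 29 genes of NRF2 and NADPH supply Pgd, of the pentose phosphate pathway, fell from 52.5, 103 and 97.3 to 24.8, 22.7 and 22.9 CPM (log2 fold change -1.85, SE 0.39, adjusted p = 0.013; median of the list -0.09), lost without 24 h replicate 2 (0.0589). Of 23 genes of insulin and growth hormone signalling Igfbp2, Igfbp4, Cux2 and Enpp1 rose, by 0.95, 0.46, 1.38 and 0.43 (median 0.18). Of 22 growth arrest genes Ccnd3 rose by 0.49 (median -0.04), and of 47 proteasome genes Psma6 by 0.26 (median 0.10). Of 70 nuclear genes of oxidative phosphorylation Cox6b2 rose, from 4 to 48 summed counts, and Ndufa8 fell by 0.37 (median 0.13). All of these calls except those of Pgd and Cyp2c70 were lost without any one of 3 or more libraries. No gene was called among 21 immediate early genes (median -0.09, smallest adjusted p 0.0531 for Ier2), 11 glucocorticoid receptor targets (median -0.01, 0.131 for Dusp4), 29 acute phase genes (median 0.02, 0.0849 for Fgg) and 11 hypoxia targets (median -0.01, 0.103 for Egln1).

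The same comparison in pericentral hepatocytes, which shares no library with the periportal one, called 1212 genes (9.71%), of which 649 were higher and 563 lower. Called in both zones were 471 genes, all in the same direction. They were 50.6% of the periportal calls, where 9.71% of all tested genes were called pericentrally. They were also 38.9% of the pericentral calls, where 7.46% of all tested genes were called periportally. Of the 931 periportal calls 895 had a pericentral change of the same sign. The share with the same sign over all tested genes is not given here, so that count is a description. The test of the difference between the zones, over the same 12477 genes, called none. At an unadjusted p under 0.05 it gave 746 genes, 138 of them periportal calls, and the smallest adjusted p was 0.711. DESeq2 called 3 and limma-voom none. No change described above is therefore shown to be particular to the periportal zone.

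Values for a few genes are given side by side. Per2 changed by 2.30 (SE 0.17) in periportal and 2.36 (SE 0.17) in pericentral hepatocytes, Tef by 1.87 and 1.92, Pklr by -2.37 and -2.57, and Pdia6 by -1.12 and -1.20. Of the 130 called genes that the naming rule picks, 13 had an unadjusted zone-difference p under 0.05. The change of Dbp was 3.86 in periportal and 5.91 in pericentral hepatocytes (difference -2.05, SE 0.89, unadjusted p = 0.0372, adjusted p = 0.829), and that of Acot3 2.55 and 4.40 (unadjusted p = 0.0307, adjusted p = 0.819). Inhba changed by -1.96 and -0.92, Gbe1 by -0.85 and -0.23, and Slc30a10 by -2.03 and -2.88, with unadjusted p = 0.0345, 0.0148 and 0.018 and adjusted p = 0.827, 0.776 and 0.791. These differences do not pass the correction. For Pck1 the values were 0.34 (SE 0.46) and 1.19 (SE 0.46), a difference of -0.84 with SE 0.65 (unadjusted p = 0.215).

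**Figure D5:**
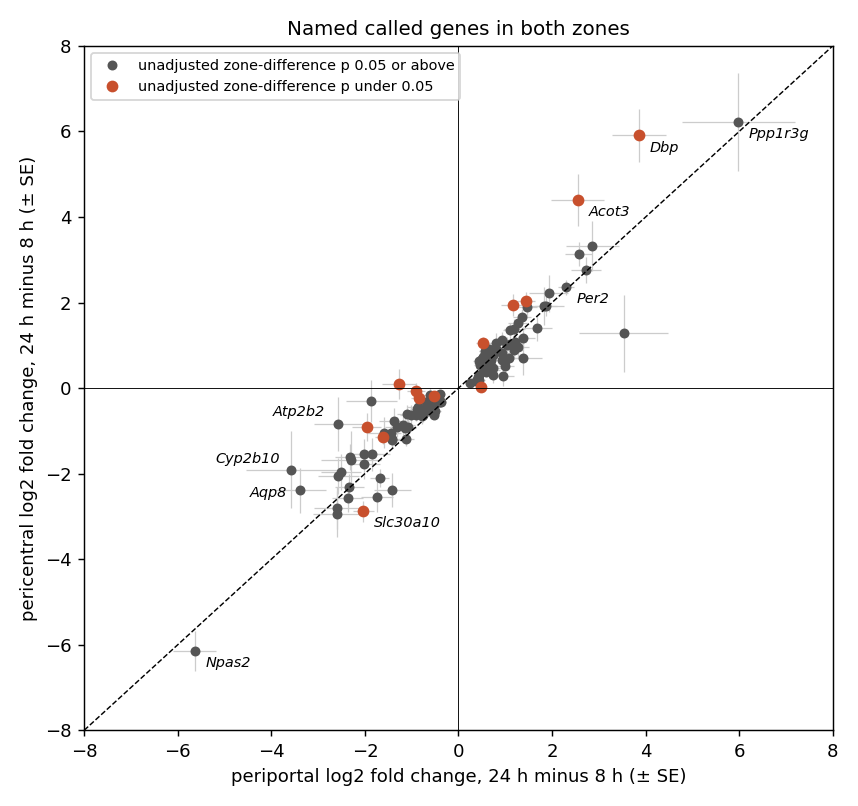
Log2 fold change, 24 h minus 8 h, of the 130 called genes picked by the naming rule, in periportal (horizontal) and pericentral hepatocytes (vertical), with standard errors; the dashed line marks equal change. The points follow the line from Npas2 at the lower left to Ppp1r3g at the upper right, and the 13 coloured genes have an unadjusted zone-difference p under 0.05.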

How the data were processed

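The deposited table holds estimated counts per gene for 18 libraries, not normalised further. Per the submitters' processing notes kallisto 0.46.0 and the build mm10 (GRCm38) were used. The annotation, the strand setting and how transcripts were summed to genes are not given in the sources used here. The deposited estimated counts were rounded to whole numbers. Libraries were scaled by TMM and tested with edgeR 4.0.16 (quasi-likelihood F test, robust; R 4.3.3) over all 18 libraries with 1 term per group, after edgeR's filter on low counts. The change from 8 h to 24 h in each zone and the difference between the zones were tested, with Benjamini-Hochberg adjustment over 12477 genes and a threshold of 0.05. An exact permutation test of 3 against 3 libraries cannot go below p = 0.1. Gene positions are from GENCODE M21 and promoters from RefSeq, both GRCm38. The script was tested on simulated data.

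Named genes are Pck1, G6pc, Fbp1 and Pcx, the 10 largest changes in each direction (called, libraries not overlapping, mean of 10 CPM or more at the higher time), and for each list up to 4 called members with the smallest adjusted p, or all where 25% or more were called. Others are said to be chosen after their values were seen. The lists and markers were chosen with earlier results of these data known, so their counts are descriptions. Replicate numbers were not used as pairs. Replicates within a group differed by more than sampling noise. Alternatives were DESeq2 1.42.0, limma-voom (limma 3.58.1), other scalings and filters, smaller sets of libraries, a replicate block, and each library left out. List members Rhbg and Hjv were not analysed here. Some members counted in the lists are not reported here by name.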

Additional observations from a re-analysis of the deposited data

How the results depend on the processing

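The number of periportal genes called (931) was 587 with the 9 periportal libraries fitted alone and 413 with only the 6 compared, where fewer libraries estimate the spread, and 335 to 877 with 1 library left out. The pericentral number (1212) was 617 with only its 6 libraries and 534 to 1020 with 1 left out. The zone difference (0 genes) was 3 by DESeq2 and 0 to 2 with 1 library left out. The causes of these shifts were not tested. The other alternatives stayed within 1.5 times: 955 with DESeq2's size factors, 1032 with a filter at a mean of 1 CPM, 867 by limma-voom, 1367 by DESeq2 and 659 with no filter beyond 1 count. Periportal libraries with the same number at 8 h and 24 h did not all deviate together (correlations 0.206, -0.0198 and 0.107). Those with unlike numbers gave -0.168 to 0.076, so replicates 1 and 3 lay above that range and replicate 2 within it. The deviations were taken from the mean of the 3 libraries of each group, so these correlations depend on each other. The range of unlike numbers is therefore no independent reference. Whether a number marks a shared day or batch is not given in the labels, and the numbers were not used as pairs. A fit with the replicate block gave 965 periportal and 1282 pericentral calls and no zone difference. Scaling without the 20 most abundant genes gave 668 periportal calls, 31.6% of them higher (43.2% in the report), and 941 pericentral ones, 32.9% higher (53.5%).

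Of the 131 called genes named in the report, 56 were called in all 16 alternatives. The others lost the call in at least 1: 55 without 24 h replicate 2, 53 without 8 h replicate 2, 42 without 24 h replicate 3, 39 without 8 h replicate 3, 27 without 24 h replicate 1, 25 without 8 h replicate 1, 45 with the 6 libraries alone, 27 with the 9 periportal libraries, 19 without the most abundant genes, 16 with no filter beyond 1 count, 10 under the replicate block, 8 without pericentral 24 h replicate 2, 2 by limma-voom and 0 by DESeq2, with its size factors or with the filter at a mean of 1 CPM. None changed direction. Genes at a few counts per library, such as Npas2 at 24 h and Ppp1r3g at 8 h, are limited by depth.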

Other observations

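Single periportal libraries stood apart from the other libraries of their fast. In 24 h replicate 3 the acute phase gene Saa1 reached 1610 CPM, against 129 and 12.5 in replicates 1 and 2, and Saa2 988, against 34.8 and 7.9. Hspa1b, an inducible heat shock gene, was at 178 CPM there, against 23.8 and 10.8. In 8 h replicate 1 the drug-inducible Cyp2b10 was at 5.57 CPM, against 111 and 167, and the fatty acid carrier Cd36 at 3.63, against 22.8 and 25.8. The genes were picked because the highest or lowest library lay at least 5-fold from the next, after their values were seen.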
